A study of Homo sapiens with 4 samples.

Results

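The 10 genes described here encode the Notch receptors NOTCH1, NOTCH2 and NOTCH3, the Notch ligands JAG1, JAG2 and DLL1, and the Notch target genes HES1, HEY1, HES4 and NRARP. They were chosen by gene symbol from a table of RNA-seq read counts, and make up 10 of its 58735 genes. RNA was sequenced from HCC1954, an established line of human breast cancer cells, in 2 samples with a scrambled control hairpin (shCON) and 2 samples with a hairpin against ZDHHC15 (shZDHHC15), a palmitoyltransferase gene. The study sequenced these cells to ask what loss of ZDHHC15 does to transcription downstream of the Hippo/YAP pathway. The control and the depleted cells share the cell line, the hairpin vector and the medium. The labels call the knockdown stable in one place, and elsewhere describe a plasmid transfection with harvest after 36 h. They do not say whether sample numbers 1 and 2 stand for separate cultures, clones or hairpins. The p-values thus concern only the spread between these samples, estimated for each gene in large part from other genes.

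Notch signaling passes between touching cells. A Jagged or Delta-like ligand on one cell binds a Notch receptor on its neighbour, the receptor is cut first by an ADAM protease and then by γ-secretase, and its freed intracellular part moves to the nucleus, where it joins the DNA-binding protein RBPJ and Mastermind-like coactivators. The joint complex switches on a small group of genes, of which the HES and HEY repressors and the feedback inhibitor NRARP are the best known, and in the mammary gland the pathway takes part in the choice between basal and luminal cell fates.

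RBPJ binds DNA that holds the core TGGGAA. The stretches with this core before the RefSeq starts of HES1 and HES4 are shown. They give the sequence context of 2 of the target genes that fell. Both are from RefSeq on GRCh38.p14, 5′ to 3′ on the strand of the gene, with the core in capitals. The HES1 stretch lies at chr3:194135998-194136144 on the plus strand. The HES4 stretch lies at chr1:1000163-1000192 on the minus strand. HES4 as the count table draws it starts 75 bases farther upstream than RefSeq does. All but the first base of the HES4 core, and the bases after the core, lie within that form of the gene.
HES1: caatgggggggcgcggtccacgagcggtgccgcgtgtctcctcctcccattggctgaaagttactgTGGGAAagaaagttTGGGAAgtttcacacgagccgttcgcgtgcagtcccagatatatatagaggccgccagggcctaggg
HES4: cgattggctggggcgagtgTGGGAAagaat
The core begins 84 and 70 bases before the RefSeq start of HES1, in tandem on the same strand, and 76 bases before that of HES4. RefSeq windows of 250 bases before and 50 bases after the start were matched for 8 of the 10 genes, all but DLL1 and HEY1. TGGGAA, searched on both strands, was found in 2 of the 8 windows, those of HES1 and HES4. This share was near the 24.0% of all 35116 windows that held it. The longer form GTGGGAA, which contains the core, was also found in these same 2 windows, against 6.25% of all windows. CACNAG, the N box to which HES proteins bind, was found in 5 of the 8 windows (HES1, NOTCH1, NOTCH2, NOTCH3 and NRARP), against 38.0% of all windows. HES1 held 4 copies of it, while CATTCC, the motif of the TEAD factors through which YAP acts, was in 0 of the 8 windows and in 14.0% of all. A match of letters does not show that a factor was bound.

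The total counts per sample lay between 17560982 and 19118704, and 15817 genes passed the filter on low counts and entered the quasi-likelihood test of edgeR, from which the adjusted p-values given here come (Benjamini-Hochberg over all tested genes, SE for standard error). ZDHHC15, the targeted gene, received 17617 and 15716 counts in shCON and 0 in each shZDHHC15 sample, at least 6045-fold lower against a floor of 3 counts per library. All 10 epithelial markers examined had at least 10 counts in every sample, while the 10 leukocyte markers summed to 1.26 and 0.949 CPM (read counts scaled to a common library total, with TMM factors) in shCON and to 2.36 and 1.94 CPM in shZDHHC15, with CD3E, CD3D and MS4A1 at 0 in every sample. The 7 fibroblast markers summed to 26.1 and 33.1 CPM in shCON and to 37.0 and 41.0 CPM in shZDHHC15, with LUM at 0. The summed level of the epithelial markers was 27640 and 30356 CPM in shCON and 15046 and 16104 CPM in shZDHHC15, and that of 6 endothelial markers was 59.5 and 59.9 against 104 and 109 CPM. Of the 10 epithelial markers 8 were lower and 1 higher, and of the 4 tested endothelial markers 2 were higher and 1 lower, where 20.3% of all tested genes were lower and 21.7% higher. The 1 tested leukocyte marker, CD14, was higher at 9 and 5 counts in shCON against 25 and 22 (log2 fold change 1.61, adjusted p = 0.0159). COL1A1 of the 2 tested fibroblast markers was also higher (0.65, adjusted p = 0.0232). Of the endothelial markers, PECAM1 (2.91, adjusted p = 5.43e-07) and CDH5 (0.65, adjusted p = 2.84e-04) were higher and KDR (-0.64, adjusted p = 0.0227) lower. None of the endothelial list was at 0 in all 4 samples. The part of these shifts in the results below was not tested, and in a bulk sample fewer cells of one kind and less RNA per cell cannot be told apart.

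In ZDHHC15-depleted cells the receptors rose and most of the target genes fell. At an adjusted p below 0.05, all 3 receptors and 1 of the 3 ligands were higher, and 3 of the 4 targets were lower. That is 7 called genes of 10, each of which passed the filter on low counts, against 42.0% of all tested genes called in this comparison. In the separate directions, 4 of the 10 were higher against 21.7% of tested genes, and 3 of the 10 were lower against 20.3%. The median of the 10 genes was -0.09 on the log2 scale, against 0.02 for all tested genes. The share of tested genes that differed at least as much in either direction was 54.6% for NOTCH1, 49.1% for NOTCH2 and 14.4% for NOTCH3. For DLL1 it was 14.0%, for HES1 24.3%, for NRARP 37.5% and for HES4 56.7%, so several of these shifts were of ordinary size in this comparison. In each of the 10 genes both shZDHHC15 samples lay on the same side of both shCON samples, which was so for 72.5% of tested genes, so the lack of overlap is in itself no mark of these genes. Without shZDHHC15 replicate 1 the called Notch genes were 1 higher (NOTCH3) and 1 lower (HES1), while 2524 of all 16550 genes tested in that fit were higher and 2201 lower. Without shCON replicate 2 there were 2 higher and 2 lower, with 2815 and 2897 of all 16757 genes. Without shZDHHC15 replicate 2 there were 2 higher and 3 lower, with 2935 and 2593 of all 16532 genes.

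**Figure D1:**
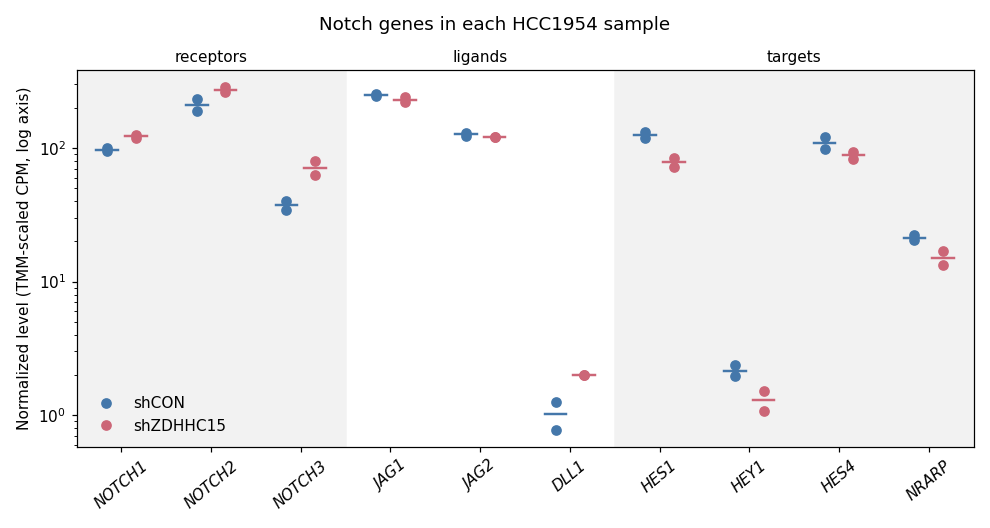
Normalized level of each Notch gene (TMM-scaled CPM, log axis) in the 2 shCON and 2 shZDHHC15 samples, with points for samples and bars for group means. The 3 receptors sit higher in both shZDHHC15 samples and the 4 targets sit lower, while JAG1 and JAG2 lie close to their control levels.

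The receptors are single-pass membrane proteins that carry the signal. NOTCH3 (ENSG00000074181, chromosome 19, 15159038 to 15200981, minus strand) received 733 and 577 counts in shCON against 1490 and 1226 in shZDHHC15. Its normalized level was 40.2 and 34.2 CPM in shCON and 80.0 and 62.5 CPM in shZDHHC15. The lower of the depleted samples thus stood well above the higher of the controls. The log2 fold change was 0.94 (SE 0.131, adjusted p = 5.37e-05), a 1.91-fold rise, and 14.4% of tested genes differed by at least this much in either direction. NOTCH3 rose with every sample left out in turn, with log2 fold changes between 0.74 and 1.10.

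NOTCH1 (ENSG00000148400, chromosome 9, 136494433 to 136545786, minus strand) and NOTCH2 (ENSG00000134250, chromosome 1, 119911553 to 120069626, minus strand) rose by smaller amounts. NOTCH1 stood at 99.8 and 94.6 CPM in shCON and at 119 and 125 CPM in shZDHHC15, a log2 fold change of 0.33 (SE 0.0952, adjusted p = 0.0120). NOTCH2 stood at 233 and 190 CPM in shCON and at 287 and 261 CPM in shZDHHC15, a log2 fold change of 0.38 (SE 0.106, adjusted p = 0.0104). The groups do not overlap for either gene, but the shCON samples of NOTCH2 lie farther from each other than the higher of them lies from the nearest depleted sample. The rise of NOTCH1 no longer passed the test without shZDHHC15 replicate 1 (adjusted p = 0.0505) or replicate 2 (adjusted p = 0.125). NOTCH2 fell short without shCON replicate 2, at a log2 fold change of 0.22 (adjusted p = 0.0802), and without shZDHHC15 replicate 1, at 0.30 (adjusted p = 0.0949).

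NOTCH2 has partial copies elsewhere on chromosome 1, which could draw reads from it or lend reads to it. Of its exact stretches of 100 bases, 15.9% also occur in transcripts of NBPF19 and 14.6% in those of NOTCH2NLA, a human gene derived from the start of NOTCH2. NOTCH2NLA received 33 and 9 counts in shCON and 20 and 23 counts in shZDHHC15, and NBPF19 received 345 and 242 against 426 and 445. NOTCH2 itself received between 3200 and 5346 counts, many more than either copy. NBPF19 had a log2 fold change of 0.45 (adjusted p = 0.0237), which fell short without shCON replicate 2 (0.26, adjusted p = 0.214), without either shZDHHC15 sample (adjusted p = 0.0632 and 0.0513), with the DESeq2 Wald test and with no filter on low counts. The log2 fold change of NOTCH2NLA was -0.09 (adjusted p = 0.903), and 1.04 without shCON replicate 1.

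**Figure D2:**
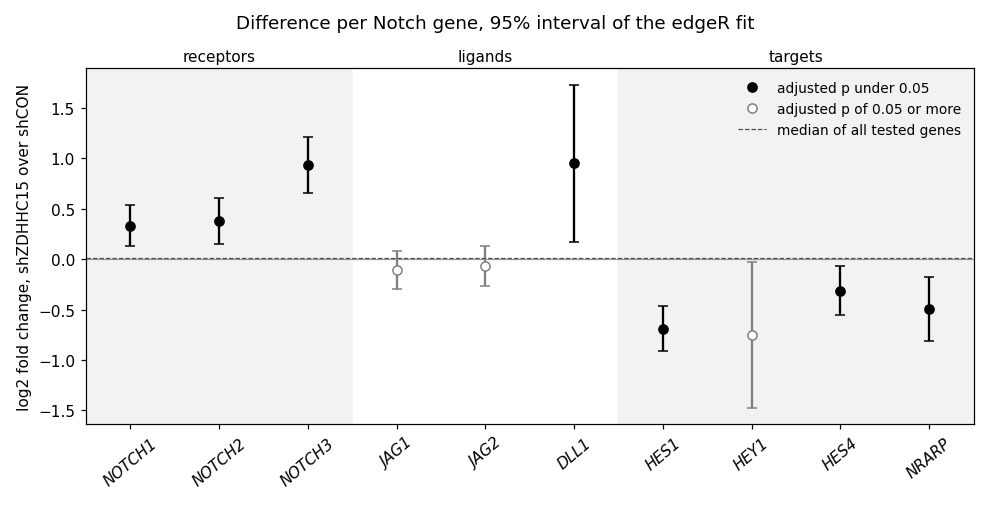
log2 fold change of shZDHHC15 over shCON for each Notch gene with its 95% interval from the edgeR fit on 4 samples; filled points have an adjusted p under 0.05 and the dashed line is the median of all tested genes (0.02). The intervals of the 3 receptors lie above 0, those of JAG1 and JAG2 span it, and those of the targets lie below it, HEY1 only just (-1.48 to -0.03) and not past the adjusted p.

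The ligands sit on the signal-sending cell. JAG1 (ENSG00000101384, chromosome 20, 10637684 to 10673999, minus strand) is known as a transcriptional target of YAP in liver cells, and had the highest level per length of the 3 ligands. It was measured at 252 and 244 CPM in shCON and at 221 and 239 CPM in shZDHHC15, with a log2 fold change of -0.11 that did not pass the test (SE 0.0902, adjusted p = 0.358). The 95% interval of its change, from -18.8% to 5.98%, still allows a modest drop. JAG2 (ENSG00000184916, chromosome 14, 105140981 to 105168824, minus strand) was at 124 and 130 CPM in shCON and 121 and 122 CPM in shZDHHC15. Its log2 fold change was -0.07 (SE 0.0929, adjusted p = 0.603), its interval ran from -16.8% to 9.59%, and its sign turned with library size as the only scaling.

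DLL1 (ENSG00000198719, chromosome 6, 170282206 to 170306565, minus strand), a Delta-like ligand, was barely expressed. It received 23 and 13 counts in shCON and 37 and 39 counts in shZDHHC15, or 1.26 and 0.771 CPM against 1.99 CPM in each depleted sample. The groups stand apart, yet every value rests on 39 counts or fewer. Its log2 fold change of 0.95 (SE 0.366) came with an adjusted p of 0.0488, at the edge of the threshold, with an interval from 0.17 to 1.73. The call was lost with upper-quartile factors, the legacy quasi-dispersion, the DESeq2 Wald test and no filter on low counts, and without shCON replicate 2 (log2 fold change 0.64, adjusted p = 0.320) or either shZDHHC15 sample (adjusted p = 0.113 and 0.114).

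The target genes encode nuclear proteins that act on transcription. HES1 (ENSG00000114315, chromosome 3, 194136145 to 194138732, plus strand), the archetypal Notch target and a basic helix-loop-helix repressor, received 2184 and 2227 counts in shCON and 1344 and 1647 counts in shZDHHC15. Its level was 120 and 132 CPM in the controls and 72.2 and 83.9 CPM in the depleted cells. Both depleted samples lie well below both controls. HES1 fell by 0.69 on the log2 scale (SE 0.106, adjusted p = 1.17e-04), a drop of 38.0%. HES1 fell with each sample left out in turn, with log2 fold changes between -0.81 and -0.59.

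NRARP (ENSG00000198435, chromosome 9, 137300482 to 137302251, minus strand) encodes a small ankyrin-repeat protein that is induced by Notch and promotes the loss of the Notch intracellular domain. It was at 20.5 and 22.2 CPM in shCON and at 13.4 and 16.9 CPM in shZDHHC15. The control samples lie closer together than the depleted samples do. The log2 fold change was -0.49 (SE 0.147, adjusted p = 0.0142). Without shZDHHC15 replicate 1 it was -0.34 and no longer passed the test (adjusted p = 0.180).

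HES4 (ENSG00000188290, chromosome 1, 998962 to 1000172, minus strand), a HES family repressor that mice lack, was at 98.8 and 120 CPM in shCON and at 83.0 and 93.4 CPM in shZDHHC15. Here the lower control and the higher depleted sample are close to each other. HES4 fell by 0.31 on the log2 scale (SE 0.112, adjusted p = 0.0366). With 1 sample left out the value ranged from -0.48 without shCON replicate 1 to -0.17 without shCON replicate 2, and it lost the call in the latter fit (adjusted p = 0.235) and without shZDHHC15 replicate 1 (log2 fold change -0.23, adjusted p = 0.259). The call was also lost when samples were scaled by library size alone (adjusted p = 0.104).

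HES4 lies next to a gene that rose strongly in the same cells. ISG15, which encodes an interferon-induced ubiquitin-like protein, starts 966 bases from HES4 on the opposite strand, so that the genes point away from each other. ISG15 received 1038 and 1166 counts in shCON and 15123 and 13027 counts in shZDHHC15. It rose by 3.55 on the log2 scale (SE 0.125, adjusted p = 2.42e-11), while HES4 fell. On its other side, 16869 bases away, PERM1 had a log2 fold change of -0.32 (adjusted p = 0.206).

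HEY1 (ENSG00000164683, chromosome 8, 79764010 to 79767863, minus strand), a hairy-related repressor of the same class, was close to the limit of what these libraries measure. It received 43 and 33 counts in shCON and 28 and 21 counts in shZDHHC15, which is 2.36 and 1.96 CPM against 1.5 and 1.07 CPM. Both depleted samples are below both controls. The log2 fold change was -0.75 (SE 0.340), close to the -0.69 of HES1, but the adjusted p was 0.0900 and the gene was not called. Its adjusted p lay between 0.0671 and 0.375 over all alternatives and left-out samples.

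Levels of different genes were compared as CPM per kb of exon. In shCON cells HES4 was the highest, at 98.0 ± 13.6 CPM per kb (SD, n = 2), followed by HES1 at 61.1 ± 4.19, JAG1 at 26.7 ± 0.592 and JAG2 at 19.8 ± 0.704. The receptor NOTCH2 (12.6 ± 1.82) and the target NRARP (12.1 ± 0.708) came next and overlapped in their samples. NOTCH1 (9.36 ± 0.356) and NOTCH3 (3.96 ± 0.452) were lower, and HEY1 (0.668 ± 0.0880) and DLL1 (0.315 ± 0.108) were at the bottom. Apart from NOTCH2 and NRARP, each gene stood above the next in both control samples.

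The same order held in shZDHHC15 cells but for 2 exchanges. NRARP, at 8.54 ± 1.39 CPM per kb (SD, n = 2), was now below NOTCH1, at 11.8 ± 0.398, and overlapped with NOTCH3, at 7.58 ± 1.32. DLL1, at 0.616 CPM per kb in both samples, was now above HEY1, at 0.398 ± 0.0949. HES4 (78.9 ± 6.61) and HES1 (37.8 ± 4.02) were again the most abundant of the 10 per length.

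**Figure D3:**
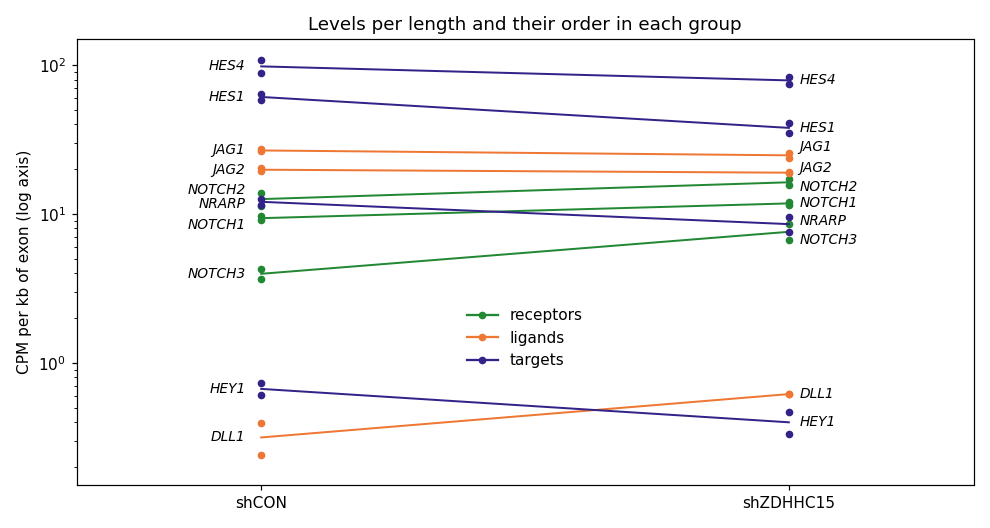
Levels of the 10 Notch genes in CPM per kb of exon (log axis) in shCON and shZDHHC15 cells, with points for samples and lines between group means. Lines of receptors slope up and lines of targets slope down, and NRARP passes from the level of NOTCH2 (12.1 against 12.6) to that of NOTCH3 (8.54 against 7.58).

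Reads of overlapping genes were examined for each member, since the strand setting of the counting is not given in the sources used here. An antisense gene within NOTCH1 (AL592301.1) received between 1 and 6 counts per sample and shares none of its exons. The antisense gene AL050403.2 shares 79 exon bases with JAG1, and AL512356.1, on the same strand, shares 469 exon bases with JAG2. Both received 0 counts in all 4 samples. FAM120B overlaps DLL1 on the opposite strand without shared exon bases, and its log2 fold change was 0.27 (adjusted p = 0.159). DLL1 also spans the lincRNA AL078605.1, which had between 0 and 2 counts, and microRNA genes inside NOTCH1, NOTCH3, JAG1 and JAG2 had 0 counts.

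Of the nearest tested protein-coding genes within 20000 bases of a member, SEC16A beside NOTCH1 rose with it (log2 fold change 0.67, adjusted p = 1.92e-04) and NUDT14 beside JAG2 fell (-0.38, adjusted p = 0.0226). The call of NUDT14 was lost without shCON replicate 2 and without either shZDHHC15 sample (adjusted p = 0.110, 0.126 and 0.0571). SLX4IP beside JAG1 had a log2 fold change of 0.38 (adjusted p = 0.0569), which passed the test without shCON replicate 1 (0.49, adjusted p = 0.0242), with library size only (adjusted p = 0.0321) and with the replicate block (adjusted p = 0.0384), and was 0.24 without shCON replicate 2. TOR4A and EXD3 on the sides of NRARP had log2 fold changes of -0.42 and -0.05 (adjusted p = 0.134 and 0.836).

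A wider list of 91 other Notch pathway genes gives the setting of these changes. The filter on low counts kept 79 of them. The test called 24 of these 79 higher and 16 lower, where 21.7% of all tested genes were higher and 20.3% lower. The share called higher lay above that of all tested genes, and the share called lower was near it. The difference was not tested. On the log2 scale the median of the 79 genes was 0.05 and their quartiles were -0.32 and 0.41. Among them 39 genes did not pass the test, and 12 were too low to be tested, including HES5, HEY2 and HEYL.

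Among 11 other receptors and ligands, 7 were tested, with 1 higher and 3 lower. Of all tested genes, 21.7% were higher and 20.3% lower. DLL3, a Delta-like protein that inhibits Notch from within the same cell, went down from 14.7 ± 2.70 to 7.02 ± 1.96 CPM (SD, n = 2), with a log2 fold change of -1.06 (SE 0.201, adjusted p = 7.26e-04). CNTN1, a contactin reported as an unconventional ligand, fell by 2.01 on the log2 scale (SE 0.212, adjusted p = 3.57e-06). DNER, another unconventional ligand, went up from 2.69 ± 0.389 to 5.47 ± 0.167 CPM (SD, n = 2), with a log2 fold change of 1.03 (adjusted p = 0.00310). The Delta-like ligand DLL4, picked after its values had been seen, went down from 14.4 ± 0.790 to 8.99 ± 1.26 CPM (SD, n = 2). Its log2 fold change was -0.68 (SE 0.163, adjusted p = 0.00392).

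Enzymes that modify the receptors with sugars or drive ligand uptake went in both directions, with 3 higher and 3 lower of 16 tested. The shares of all tested genes were 21.7% higher and 20.3% lower. NEURL1, a ubiquitin ligase that acts on ligands, went down from 34.8 ± 0.303 to 8.72 ± 2.00 CPM (SD, n = 2), with a log2 fold change of -1.99 (SE 0.154, adjusted p = 1.43e-07). Its relative NEURL1B rose by 0.81 (SE 0.119, adjusted p = 7.71e-05). The xylosyltransferase gene GXYLT2 rose by 1.10 (SE 0.270, adjusted p = 0.00430). The fringe glycosyltransferase gene MFNG fell by 1.12 (SE 0.340, adjusted p = 0.0156), from a low 3.30 ± 0.0604 CPM (SD, n = 2) in shCON, and without shZDHHC15 replicate 1 its log2 fold change was -0.66 (adjusted p = 0.175).

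Of 9 protease genes that cut Notch, all tested, 4 were higher and 2 lower, against 21.7% and 20.3% of all tested genes. The subunits of γ-secretase did not move together. PSEN2, one of the alternative catalytic subunits, went down from 61.8 ± 4.12 to 27.7 ± 1.04 CPM (SD, n = 2), with a log2 fold change of -1.16 (SE 0.112, adjusted p = 1.51e-06). PSENEN, which encodes the small activating subunit, fell by 0.95 (SE 0.160, adjusted p = 2.54e-04). NCSTN, which encodes the substrate-binding subunit nicastrin, rose by 0.45 (SE 0.0955, adjusted p = 0.00156). The surface proteases that make the first cut both rose, ADAM17 by 0.73 (SE 0.114, adjusted p = 1.35e-04) and ADAM10 by 0.56 (SE 0.107, adjusted p = 7.59e-04). NCSTN and ADAM10 were picked after their values had been seen.

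Of 11 tested genes of receptor trafficking and turnover, 7 were higher and 1 lower, with a median of 0.32 on the log2 scale, where 21.7% of all tested genes were higher and 20.3% lower. The difference from all genes was not tested. The 3 smallest adjusted p in the list were those of the Deltex family genes DTX2, DTX3L and DTX4, while DTX1 and DTX3, with at most 7 counts in a sample, were too low to be tested. DTX3L, a partner of PARP9 that is also induced by interferon, went up from 57.4 ± 8.17 to 240 ± 19.5 CPM (SD, n = 2), with a log2 fold change of 2.06 (SE 0.114, adjusted p = 3.03e-09). DTX4 rose by 0.99 (SE 0.109, adjusted p = 5.43e-06) and DTX2 by 0.90 (SE 0.103, adjusted p = 8.02e-06).

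In the nuclear complex and its co-repressors, 7 of 25 tested genes were higher and 2 lower, against 21.7% and 20.3% of all tested genes. RBPJ itself, picked after its value had been seen, was at 49.0 ± 6.53 CPM in shCON and 44.5 ± 0.440 CPM in shZDHHC15 (SD, n = 2). Its log2 fold change was -0.14, with a 95% interval from -0.39 to 0.11 (adjusted p = 0.354). Leaving out shCON replicate 1 gave -0.03, and leaving out shCON replicate 2 gave -0.28 (adjusted p = 0.0659). SPEN, the large co-repressor that binds RBPJ when Notch is off, rose by 1.07 (SE 0.134, adjusted p = 1.99e-05), from 90.8 ± 23.3 to 190 ± 10.0 CPM (SD, n = 2). Of the Groucho-type co-repressors on which HES proteins rely, TLE1 fell by 0.85 (SE 0.0919, adjusted p = 4.38e-06) and TLE3 rose by 0.71 (SE 0.0939, adjusted p = 3.04e-05).

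Among 16 other HES, HEY and reported Notch target genes, 11 were tested, with 2 higher and 5 lower. The median of the 11 was -0.34 on the log2 scale, and of all tested genes 21.7% were higher and 20.3% lower. CCND1, which encodes cyclin D1, went down from 3173 ± 34.4 to 1288 ± 146 CPM (SD, n = 2), with a log2 fold change of -1.30 (SE 0.0939, adjusted p = 6.61e-08). HES7, the repressor of the segmentation clock, fell by 1.90 (SE 0.199, adjusted p = 3.44e-06), and HES2 by 1.15 (SE 0.180, adjusted p = 1.40e-04). SNAI2, which encodes the transcription factor Slug, fell by 0.93 (SE 0.131, adjusted p = 5.72e-05). Several of these genes, CCND1 among them, also answer to pathways other than Notch.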

How the data were processed

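The authors deposited raw read counts per gene, not normalized, for 58735 genes in 4 HCC1954 samples, with the length and position of each gene, and 0 further sample columns were left out. The libraries were built with the NEBNext Ultra kit, and the submitters' processing notes name HISAT2, StringTie, SAMtools and hg38. The counting tool, annotation and strand setting are not given in the sources used here. All 58735 identifiers, starts, ends and symbols matched GENCODE release 29. Samples of one group differed by more than counting noise (chi-square per degree of freedom 8.32 for shCON and 6.79 for shZDHHC15) and were kept apart.

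Counts passing filterByExpr (15817 genes) were scaled by TMM and tested with edgeR 4.0.16 (R 4.3.3), using glmQLFit and glmQLFTest with Benjamini-Hochberg adjustment over all tested genes. With 2 samples a group, the smallest two-sided p of an exact permutation test is 0.333. The spread of each gene was drawn towards that of the other tested genes (median prior degrees of freedom 12.8, against 2 residual). Standard errors are the fold change divided by the root of its F statistic, and the script was tested on simulated data. A count of 0 allows up to 3 counts, for counting error only. Alternatives were the DESeq2 1.42.0 Wald test, scaling by DESeq2 size factors, by upper quartiles or by library size only, 2 other filters on low counts, the legacy quasi-dispersion, a replicate block and leaving out each sample. Fits without a sample assume that the lone sample of a group varies like the other pair. The adjusted p of NOTCH3 was smaller in these fits than with all samples, so a call in them is no stricter check.

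The members and gene lists were chosen with earlier results of these data known. Named in the text are the 10 members, genes overlapping them or nearest to them within 20000 bases, and genes that share stretches with NOTCH2. From the other lists, the 3 genes with the smallest adjusted p are named. Those with a called log2 fold change of at least 1 in size are named too. DLL4, NCSTN, ADAM10 and RBPJ were added after their values had been seen.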

Additional observations from a re-analysis of the deposited data

How the results depend on the processing

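NOTCH3 and HES1 kept their direction and their call under all 8 alternatives, and their direction with each sample left out. JAG1 and HEY1 were called in none of these fits. With no filter on low counts, which brings 30168 genes into the adjustment, 1 Notch gene was higher and 1 lower. Of all 30168 genes in that fit, 2282 were higher and 2350 lower. With each sample left out in turn, all 10 kept their sign, but calls were lost as given above for single genes. With library size only, JAG2 turned to 0.0091. NOTCH1, NOTCH2 and NRARP lost their calls under 1 alternative each, the fit with no filter (adjusted p = 0.0518, 0.0864 and 0.0629). DLL1 lost its call with upper-quartile factors (0.0536), the legacy quasi-dispersion (0.0525), the DESeq2 Wald test (0.201) and no filter (0.108), and HES4 with library size only (0.104) and no filter (0.134). The cause of these losses was not tested.

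With the replicate block 4 Notch genes were higher and 3 lower, and 26 and 19 of the other pathway genes. Of all 15817 genes tested in that fit, 3723 were higher and 3502 lower. The block changed no call of a Notch gene. Deviations of same-numbered samples from their group means correlated at 0.0344, and the numbers are not known to pair the samples. Among the 8 alternatives the other pathway genes numbered between 16 and 26 higher and between 14 and 19 lower. Over all tested genes these fits called between 2282 and 3926 higher and between 2350 and 3502 lower.

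The same alternatives were applied, after seeing the data, to the other pathway genes named except DLL4, and to the neighbours, NBPF19 and NOTCH2NLA. Of the 20 named pathway genes, 19 kept direction and call throughout, the exception being MFNG. EXD3 turned to 0.0260 with library size only and ranged from -0.14 to 0.0036 with 1 sample left out, and NOTCH2NLA ranged from -0.70 to 1.04 with 1 sample left out. Of the 10 Notch genes, depth limits DLL1 and HEY1 most, at 13 to 43 counts per sample.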
